A study of Mus musculus with 12 samples.

Results

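The genes described here encode giant proteins, among them the kinases related to phosphatidylinositol 3-kinase, large ubiquitin ligases, chromatin and transcription regulators, lipid transfer proteins, cytoskeletal scaffolds and calcium channels. The list holds 41 gene symbols. Each gene was represented by the probe set annotated to its symbol alone that had the highest mean over the 12 arrays. That gave 38 genes of the 19937 with such a probe set, and all 38 passed the filter on low values, which left 13180 genes to test. Ubr4, Ncor1 and Itpr1 had no probe set annotated to their symbol alone and were not analysed here. The label of the group rests on textbook protein sizes, since protein lengths were not computed here. It also names ligases of the HECT type, a description that holds for Herc1, Herc2 and Huwe1, whereas Birc6 carries a ubiquitin-conjugating domain and Mycbp2 a RING domain.

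The cells were the #483 T-ALL clone, a mouse T cell acute lymphoblastic leukaemia of the C57BL6 strain, so every value comes from 1 clone. The 4 groups, of 3 arrays each, were cytoplasmic RNA of control cells, cytoplasmic RNA of cells given 100 µM 4EGI-1 for 2 h, and, for control and treated cells alike, RNA of the polysomes, taken as pooled fractions from a density gradient of sucrose. The sample labels call the control untreated and the protocol names DMSO, and the fraction labelled cytoplasmic is called Total in the sample titles and was extracted from whole cells in the design text, so nuclear RNA in it cannot be told apart. 4EGI-1 is a small molecule that keeps eIF4E, which binds the mRNA cap, from joining the scaffold eIF4G. The arrays of a group are described as biological replicates without a word on how separate the cultures were, so the p-values reflect how these arrays spread, and part of that spread may be technical. Of 14 T lineage markers, 13 had a probe set and all 13 lay above the filter, as did 3 of 6 B lineage, 4 of 9 myeloid and 6 of 7 erythroid and stromal markers. The mean of the 9 myeloid markers ranged from 5.83 to 6.004 in cytoplasmic control arrays, 5.93 to 6.19 in cytoplasmic 4EGI-1 arrays, 5.74 to 5.81 in polysomal control arrays and 5.83 to 5.87 in polysomal 4EGI-1 arrays. Between 4EGI-1 and control, 2 of the 4 myeloid markers above the filter passed the test in cytoplasmic RNA and 1 in polysomal RNA, all of them higher. The mean of the 13 T lineage markers was lower with 4EGI-1 without overlap, at 10.025 to 10.17 in control and 9.83 to 9.96 in treated arrays in cytoplasmic RNA, and 10.13 to 10.16 against 9.92 to 9.98 in polysomal RNA. Of these 13 markers 0 rose and 2 fell in cytoplasmic RNA, and 1 rose and 3 fell in polysomal RNA. Of the 3 B lineage markers above the filter 1 rose in each fraction, and of the 6 erythroid and stromal ones 1 fell in cytoplasmic RNA. Marker means of other lineages also moved without overlap. The B lineage mean in cytoplasmic RNA was 5.50 to 5.67 in control and 5.69 to 5.72 in treated arrays. The erythroid and stromal mean in polysomal RNA was 6.94 to 6.98 in control and 6.90 to 6.93 in treated arrays. In the other fraction each of these 2 means overlapped. Over all genes tested 10.1% rose and 7.79% fell in cytoplasmic RNA, and 13.0% rose and 12.1% fell in polysomal RNA. The part of such markers in the results was not tested.

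An mRNA in active translation carries several ribosomes and sediments with the polysomes, and the initiation step that loads them starts, for most mRNAs, with eIF4E bound to the cap and eIF4G bound to eIF4E. Polysomal RNA is therefore compared with cytoplasmic RNA of the same cells. That reference, titled Total, can itself hold polysomal RNA, so a difference does not give the share of an mRNA on polysomes. A very long coding sequence can hold many ribosomes at once. The authors normalized the arrays, but it is not stated that all of them went through 1 run. Medians of the arrays ran from 6.40 to 6.56. Each difference below is set against the remaining genes of an array, and the total amount of polysomal RNA is not measured. The level of a gene is given on the log2 scale and is not set against the level of another gene.

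The promoter windows shown are of Itpr2 and Myh9, the members with the smallest p-values for 4EGI-1 in polysomal RNA among those with 1 window. Myh9 also had the largest change there. A link between these sequences and the polysomal rise was not tested. They are the 250 bases before the annotated start in RefSeq, assembly GRCm38.p6, read 5′ to 3′ on the minus strand, at chr6:146502224-146502473 for Itpr2 and chr15:77842176-77842425 for Myh9. Capitals mark matches, on either strand, to GGGCGG, known as the GC box. They also mark the CCAAT box, which has the letters of its name, and, in Myh9, a TATA motif, searched as TATAAA.
Itpr2: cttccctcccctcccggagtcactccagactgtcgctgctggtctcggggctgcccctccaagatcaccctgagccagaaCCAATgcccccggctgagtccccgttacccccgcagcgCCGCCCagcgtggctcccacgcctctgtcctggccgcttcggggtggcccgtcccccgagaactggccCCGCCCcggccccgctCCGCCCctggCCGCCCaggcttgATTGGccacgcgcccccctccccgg
Myh9: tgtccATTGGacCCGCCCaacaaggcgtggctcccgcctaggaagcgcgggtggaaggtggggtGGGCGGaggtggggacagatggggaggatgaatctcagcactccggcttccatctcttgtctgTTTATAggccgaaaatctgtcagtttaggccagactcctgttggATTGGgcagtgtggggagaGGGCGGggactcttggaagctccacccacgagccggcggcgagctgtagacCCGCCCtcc
The Itpr2 window was 74.4% G or C and held 4 GC box matches and 2 CCAAT box matches. The Myh9 window was 62.4% G or C and held 4 GC box matches, 2 CCAAT box matches and 1 TATAAA match. RefSeq windows were found for 32 of the 38 genes, 34 windows in all. A GC box was present in 85.3% of these 34 windows, in 54.7% of the 13191 windows of the genes tested and in 32.7% of all 32851 windows of this length, and the median G or C content of the 3 sets was 64.6%, 59.2% and 52.4%. A CCAAT box was present in 26.5%, 34.6% and 33.8% of these sets, and TATAAA in 8.82%, 6.66% and 12.4%. The share of windows with a GC box and the base composition followed the same order over the 3 sets. The search also covered the ETS core CCGGAAG, the E-box CACGTG and the core TGACGT of the cAMP response element, which had no match in the windows printed, and no matches overlap there.

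In control cells 23 of the 38 mRNAs were lower in polysomal than in cytoplasmic RNA and 1 was higher, and after 2 h of 4EGI-1 30 of the 38 rose in polysomal RNA. The others did not pass the test. The mean over the 38 genes was 9.80, 9.67 and 9.69 in the cytoplasmic control arrays and 9.22, 9.32 and 9.30 in the polysomal control arrays. With 4EGI-1 it was 9.86, 9.79 and 9.90 in cytoplasmic RNA and 9.82, 9.72 and 9.76 in polysomal RNA. The 3 polysomal control arrays lay below the other 9 arrays, while the mean over all genes tested stayed between 8.10 and 8.16 on the 12 arrays.

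**Figure D1:**
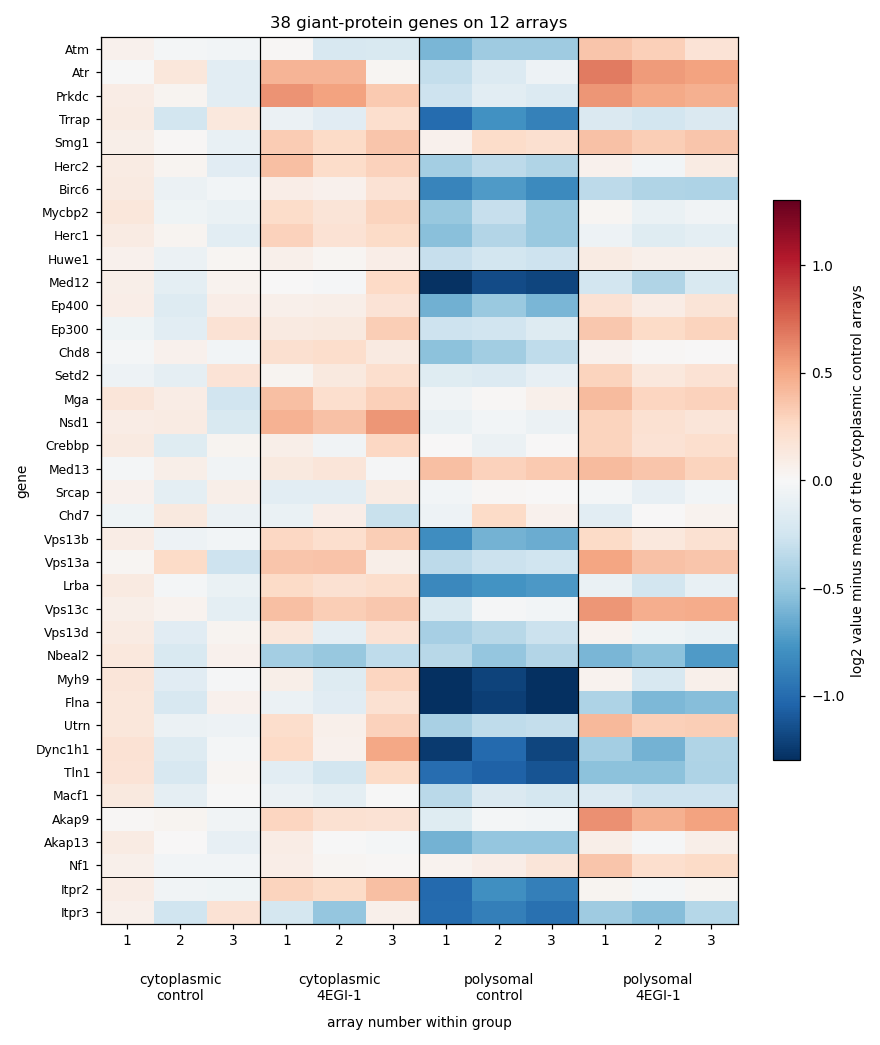
Each row is a gene and each column an array, in 4 groups of 3. Colour gives the log2 value minus the mean of that gene's 3 cytoplasmic control arrays, on a scale that ends at 1.3 in either direction. The polysomal control columns are blue for most genes, and the polysomal 4EGI-1 columns are lighter or red.

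In polysomal RNA 30 of the 38 genes rose with 4EGI-1, where the background was 13.0% of all genes tested. Their largest adjusted p was 0.0336 (limma, Benjamini-Hochberg). None fell, where the background was 12.1%. At an unadjusted p under 0.05 Nbeal2 was the 1 member on the lower side, and it was called lower with array weights and when the polysomal arrays were fitted alone. The median difference was 0.51 over the members and -0.03 over all genes tested, and the members ranged from -0.21 for Nbeal2 to 1.25 for Myh9. Of the members, 17 rose by at least 1.5-fold, against 4.58% of all genes. For 33 of the 38 every 4EGI-1 array lay above every control array in polysomal RNA, against 21.6% of all genes. The 8 genes that did not pass were Smg1, Crebbp, Med13, Srcap, Chd7, Nbeal2, Macf1 and Nf1.

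In cytoplasmic RNA the treatment difference was smaller. There 9 genes rose, with a background of 10.1%, Nbeal2 fell, with a background of 7.79%, and 28 did not pass. The median was 0.12 over the members and -0.03 over all genes tested, and no member changed by 1.5-fold. In 13 of the 38 genes the 4EGI-1 arrays all lay above the control arrays, against 13.8% of all genes. Fitted on the cytoplasmic arrays alone, 2 genes rose in place of 9, and without the first cytoplasmic 4EGI-1 array 5 did. Over all 13180 genes these fits called 731 and 869 higher, against 1325 in the fit of all 12 arrays. Without the third cytoplasmic 4EGI-1 array 2 genes fell in place of 1, and over all genes tested 1622 fell in place of 1027. The 9 genes were Prkdc, Smg1, Herc2, Mga, Nsd1, Vps13b, Vps13c, Akap9 and Itpr2, and all but Smg1 also rose in polysomal RNA. The cytoplasmic and polysomal treatment differences share no array, and across the 38 genes they had a Pearson correlation of 0.33, given as a description, since the 38 points come from the same arrays.

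**Figure D2:**
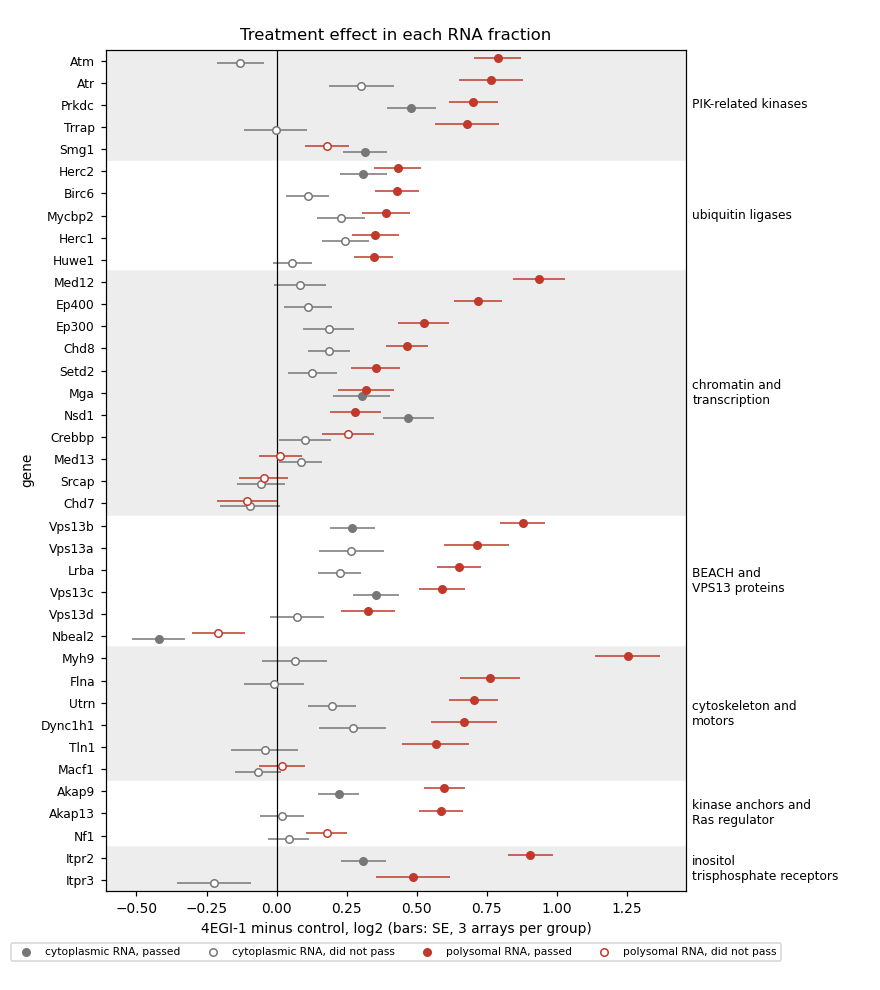
The horizontal axis gives the log2 difference between 4EGI-1 and control for each gene, in grey for cytoplasmic and red for polysomal RNA, with bars of 1 SE from the fit and 3 arrays per group. Filled points passed the test, which 30 red and 10 grey points did, and Myh9 at 1.25 lies farthest to the right.

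The difference between both treatment effects, polysomal minus cytoplasmic, passed the test in 10 genes, all of them with the higher effect in polysomal RNA, where the background was 2.31%. It was called lower in 0 members by limma and also in 0 at an unadjusted p under 0.05, and in 0 under every other setting of limma that was run, against a background of 0.607%. The 10 genes were Atm, Trrap, Med12, Ep400, Vps13b, Myh9, Flna, Utrn, Akap13 and Itpr2, and the median over all 38 was 0.30, against -0.01 over all genes tested. In 34 of the 38 genes the polysomal effect was above the cytoplasmic one, against 6192 of all 13180 genes tested. With array weights 20 genes passed, and over all 13180 genes that setting called 1147 higher and 1691 lower, against 305 and 80 without weights. This difference, the polysomal treatment effect and the comparison of fractions in control cells use the same 3 polysomal control arrays, so they are not independent of one another and their values are given side by side.

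Between the fractions of control cells 23 genes were lower in polysomal RNA, with a background of 12.2%, and Med13 was higher, with a background of 16.7%. The median was -0.37 over the members and -0.02 over all genes tested. In 11 genes the polysomal value was lower by at least 1.5-fold, against 3.40% of all genes, and in 25 every polysomal array lay below every cytoplasmic array, against 19.9% of all genes. In 4EGI-1 cells, whose arrays are different ones, 10 genes were lower in polysomal RNA, with a background of 7.15%, and 4 were higher, with a background of 9.56%. These 4 were Atm, Akap9, Med13 and Nf1, and the median over the members was -0.04, against -0.01 over all genes tested. Of the 23 genes that were lower in control cells, 10 were also lower in 4EGI-1 cells, 12 did not pass there, and 1, Atm, was higher. Across the 38 genes the control and 4EGI-1 values of polysomal minus cytoplasmic RNA had a Pearson correlation of 0.70. The design text takes both RNAs of a replicate from the same cells. With the same-numbered arrays of a treatment as a replicate block, Macf1 in control cells (adjusted p = 0.0538) and Herc2, Mycbp2 and Nf1 in 4EGI-1 cells (0.0547, 0.0675 and 0.0709) no longer passed. In the difference of effects that block ended the call of Utrn (adjusted p = 0.0677) and added Tln1 and Itpr3 (0.0398 and 0.0347). The counts in 4EGI-1 cells depended on single arrays. Without the first or the third cytoplasmic 4EGI-1 array 2 genes were higher, without the first polysomal 4EGI-1 array 1, and without the second 2. Over all genes tested 1063, 1035, 549 and 884 were higher in these fits, in the same order, against 1260 with every array. Without the third cytoplasmic 4EGI-1 array 5 genes were lower, without the first polysomal 4EGI-1 array 6, and without the second 5. Over all genes tested 817, 497 and 631 were lower in these fits, in the same order, against 942 with every array.

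**Figure D3:**
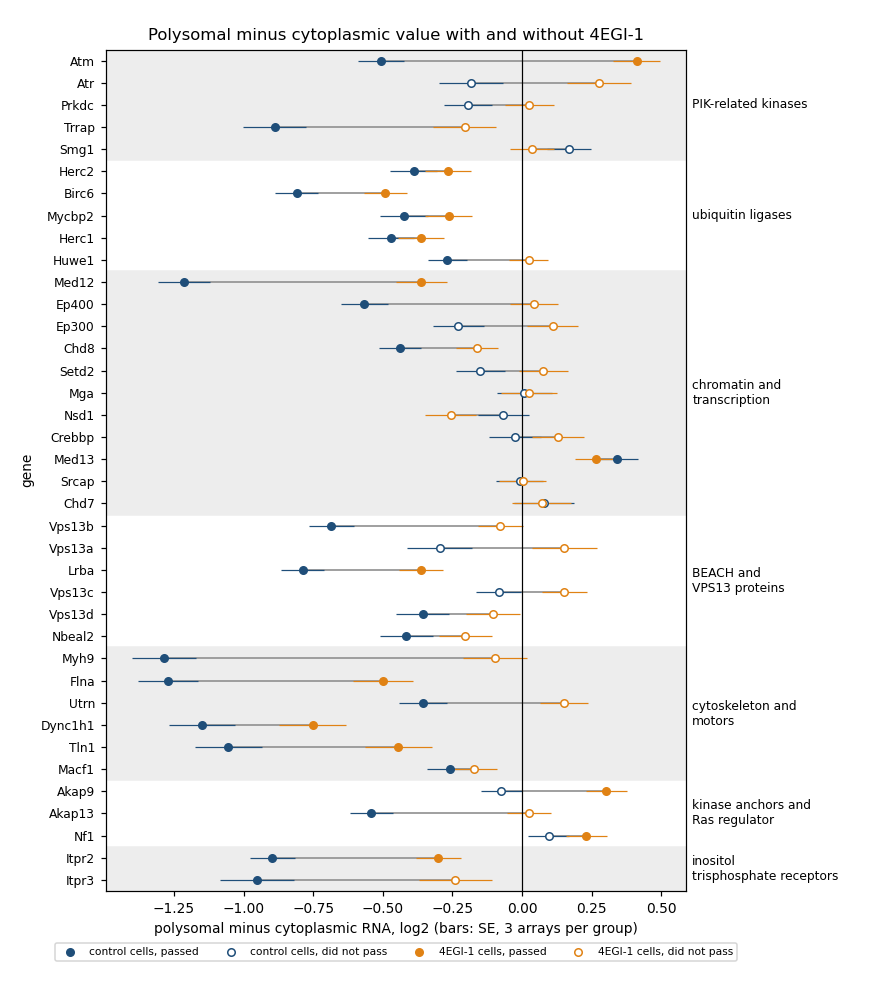
The horizontal axis gives the log2 difference between polysomal and cytoplasmic RNA for each gene, in blue for control and orange for 4EGI-1 cells, with bars of 1 SE and a grey line between the values of a gene. Filled points passed the test. Most blue points lie left of 0, down to -1.29 for Myh9. The orange points have a median of -0.04, and some, such as those of Akap9 and Nsd1, lie farther from 0 than the blue point.

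Among the kinases related to phosphatidylinositol 3-kinase, 4 of 5 rose in polysomal RNA, with a median of 0.70, and Smg1 did not pass. These proteins sense DNA damage or RNA quality or, in the case of Trrap, serve as scaffolds. Atm is the kinase that responds to DNA double-strand breaks. In cytoplasmic RNA Atm was 9.52, 9.45 and 9.43 in control arrays and 9.48, 9.26 and 9.28 in 4EGI-1 arrays. In polysomal RNA it was 8.88, 9.005 and 9.01 in control arrays and 9.83, 9.78 and 9.65 in 4EGI-1 arrays. The cytoplasmic groups overlapped, whereas the polysomal 4EGI-1 arrays lay above all the other 9. Atm rose by 0.79 in polysomal RNA (SE 0.084, adjusted p = 7.66e-06), and the cytoplasmic difference was -0.13 (SE 0.084, adjusted p = 0.329). The difference of the effects was 0.92 (SE 0.12, adjusted p = 0.000484), the smallest p of any member in that comparison. Polysomal RNA was lower than cytoplasmic RNA by a log2 difference of -0.51 in control cells (adjusted p = 0.000387) and differed by 0.41 in the other direction in 4EGI-1 cells (adjusted p = 0.00464).

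Prkdc, the catalytic subunit of the DNA-dependent protein kinase of end joining, rose in both fractions. It was 8.95, 8.89 and 8.72 in cytoplasmic control arrays and 9.44, 9.38 and 9.20 in cytoplasmic 4EGI-1 arrays. Its polysomal values were 8.59, 8.72 and 8.68 in control arrays and 9.43, 9.35 and 9.31 in 4EGI-1 arrays. The groups did not overlap in either fraction. Prkdc rose by 0.48 in cytoplasmic RNA (SE 0.087, adjusted p = 0.0014), the smallest p of the members there, and by 0.70 in polysomal RNA (SE 0.087, adjusted p = 3.26e-05). The difference of these effects was 0.22 (adjusted p = 0.481).

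Atr, which responds to stalled replication forks, was 9.17, 9.32 and 9.04 in cytoplasmic control arrays and 9.62, 9.62 and 9.20 with 4EGI-1. Its polysomal values were 8.87, 8.999 and 9.11 in control arrays and 9.85, 9.73 and 9.70 with 4EGI-1. The cytoplasmic groups overlapped and the polysomal groups did not. Atr rose by 0.76 in polysomal RNA (SE 0.11, adjusted p = 0.000181), and the cytoplasmic difference of 0.30 did not pass (adjusted p = 0.0839). Its difference of effects, 0.46, did not pass either (adjusted p = 0.187).

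Trrap, a pseudokinase that recruits histone acetyltransferase complexes, was 9.46, 9.11 and 9.49 in cytoplasmic control arrays and 9.28, 9.20 and 9.57 with 4EGI-1. Polysomal Trrap was 8.35, 8.57 and 8.47 in control arrays and 9.16, 9.11 and 9.16 with 4EGI-1. The polysomal control arrays were the lowest 3 of the 12. Trrap rose by 0.68 in polysomal RNA (SE 0.11, adjusted p = 0.000421), with a cytoplasmic difference of -0.0037 (adjusted p = 0.988). The difference of effects, 0.68 (adjusted p = 0.0314), passed in 11 of the 22 other settings and single-array omissions. A second Trrap probe set, with a mean of 8.08, also rose in polysomal RNA, by 0.53, while its fraction difference in control cells was -0.26 and did not pass, against -0.89 for the probe set used.

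Smg1, which phosphorylates Upf1 in nonsense-mediated decay, was the member of this family that rose in cytoplasmic RNA without passing in polysomal RNA. Its cytoplasmic values were 11.01, 10.95 and 10.83 in control arrays and 11.26, 11.18 and 11.29 with 4EGI-1. In polysomal RNA Smg1 was 10.98, 11.17 and 11.14 in control arrays and 11.30, 11.24 and 11.28 with 4EGI-1. The groups did not overlap in either fraction, though the polysomal ones lay close. Smg1 rose by 0.31 in cytoplasmic RNA (SE 0.079, adjusted p = 0.0122), and its polysomal difference was 0.18 (SE 0.079, adjusted p = 0.116). Its difference of effects, -0.13, did not pass (adjusted p = 0.693). When the cytoplasmic arrays were fitted alone the adjusted p was 0.0764.

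All 5 ubiquitin ligases rose in polysomal RNA, by amounts within a narrow range. The changes were 0.35 for Huwe1, 0.35 for Herc1, 0.39 for Mycbp2, 0.43 for Birc6 and 0.43 for Herc2, and the largest adjusted p was 0.00523. None of the 5 passed in the difference of the treatment effects, for which their median was 0.16. All 5 were also lower in polysomal than in cytoplasmic RNA of control cells, with a median of -0.42, and all but Huwe1 were lower in 4EGI-1 cells. Birc6, an inhibitor of apoptosis that also transfers ubiquitin, had the smallest p of the members in the latter comparison. Cytoplasmic Birc6 was 10.69, 10.50 and 10.54 in control arrays and 10.66, 10.63 and 10.76 with 4EGI-1. Polysomal Birc6 was 9.71, 9.83 and 9.75 in control arrays and 10.23, 10.18 and 10.17 with 4EGI-1. In both conditions the polysomal arrays lay below the cytoplasmic ones. The difference between fractions was -0.81 in control cells (SE 0.077, adjusted p = 3.57e-06) and -0.49 in 4EGI-1 cells (SE 0.077, adjusted p = 0.000934). Herc2 was the 1 ligase that rose in cytoplasmic RNA, by 0.31 (adjusted p = 0.0179).

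Of the 11 chromatin and transcription genes 7 rose in polysomal RNA, and Crebbp, Med13, Srcap and Chd7 did not pass. In control cells 3 of the 11 were lower in polysomal than in cytoplasmic RNA, Med12, Ep400 and Chd8, while Med13 was higher and 7 did not pass. Med12 and Med13 belong to the same kinase module of the Mediator complex. Med12 was 9.76, 9.56 and 9.73 in cytoplasmic control arrays and 9.69, 9.67 and 9.95 with 4EGI-1. In polysomal RNA Med12 was 8.40, 8.53 and 8.49 in control arrays and 9.44, 9.30 and 9.49 with 4EGI-1. Its polysomal control arrays were the lowest 3 and its polysomal 4EGI-1 arrays the next 3. The fraction difference in control cells, -1.21 (SE 0.093, adjusted p = 4.8e-07), had the smallest p of the members. Med12 rose by 0.94 in polysomal RNA (SE 0.093, adjusted p = 4.46e-06), with a cytoplasmic difference of 0.083 (adjusted p = 0.594) and a difference of effects of 0.85 (SE 0.13, adjusted p = 0.00179).

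Med13, which tethers the kinase module to the rest of Mediator, was 11.50, 11.41 and 11.45 in polysomal control arrays and 11.53, 11.47 and 11.40 in polysomal 4EGI-1 arrays, and these groups overlapped. Its cytoplasmic values were 11.09, 11.19 and 11.07 in control arrays and 11.24, 11.27 and 11.10 with 4EGI-1. Med13 was higher in polysomal RNA by 0.34 in control cells (adjusted p = 0.0037) and by 0.27 in 4EGI-1 cells (adjusted p = 0.0286), and its treatment difference in polysomal RNA was 0.013 (SE 0.077). The array values of Med13 were chosen for printing after they had been seen.

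The paralogous acetyltransferases Ep300 and Crebbp, coactivators of many transcription factors, both lay higher with 4EGI-1 in polysomal RNA, and Ep300 passed the test, while Crebbp did not. Ep300 was 10.22, 10.24 and 10.32 in polysomal control arrays and 10.84, 10.73 and 10.78 with 4EGI-1. It was 10.44, 10.35 and 10.67 in control arrays and 10.60, 10.62 and 10.80 with 4EGI-1 in cytoplasmic RNA. The polysomal groups of Ep300 did not overlap and the cytoplasmic ones did. Crebbp was 10.99, 10.91 and 10.99 in control arrays and 11.27, 11.18 and 11.20 with 4EGI-1 in polysomal RNA. It was 11.10, 10.83 and 11.02 in control arrays and 11.06, 10.94 and 11.26 with 4EGI-1 in cytoplasmic RNA. Again the polysomal groups did not overlap and the cytoplasmic ones did. The polysomal difference was 0.53 for Ep300 (SE 0.091, adjusted p = 0.000598) and 0.25 for Crebbp (SE 0.093, adjusted p = 0.0579). Neither passed in the difference of effects, 0.34 for Ep300 (adjusted p = 0.235) and 0.15 for Crebbp (adjusted p = 0.700). Crebbp passed in 11 of the 22 other settings and single-array omissions, among them the replicate block (adjusted p = 0.0301). Whether the paralogs differ from each other was not tested.

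Nsd1, a methyltransferase of lysine 36 of histone H3, had the larger change in cytoplasmic RNA. Cytoplasmic Nsd1 was 10.43, 10.44 and 10.13 in control arrays and 10.79, 10.71 and 10.91 with 4EGI-1. Its polysomal values were 10.25, 10.29 and 10.25 in control arrays and 10.62, 10.53 and 10.49 with 4EGI-1. The groups did not overlap in either fraction. Nsd1 rose by 0.47 in cytoplasmic RNA (SE 0.091, adjusted p = 0.00227) and by 0.28 in polysomal RNA (SE 0.091, adjusted p = 0.0336), and the polysomal call held in 14 of the 22 other settings and single-array omissions. The difference of the effects was -0.19 and did not pass (adjusted p = 0.597).

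Of the other chromatin genes, Ep400, the ATPase of an acetyltransferase and histone exchange complex, rose by 0.72 in polysomal RNA (adjusted p = 1.98e-05), with a difference of effects of 0.61 (adjusted p = 0.0112). Chd8, a chromatin remodeller, rose by 0.46, the methyltransferase Setd2 by 0.35 and Mga, a partner of Max, by 0.32. The Mga call held in 15 of the 22 other settings and single-array omissions. Both Setd2 probe sets rose in polysomal RNA, by 0.35 and 0.36. Srcap and Chd7, also ATPases of chromatin remodelling, differed by -0.047 (SE 0.086) and -0.10 (SE 0.11) and did not pass in any of the 5 comparisons. Chd7 was split over 30 probe sets, and the brightest, which was used, had a mean of 7.39, with the filter at 6.003. None of its probe sets above the filter passed in any comparison. A low signal can hide a change.

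The VPS13 proteins form bridges that carry lipids between membranes, and all 4 family members rose in polysomal RNA. Vps13b was 10.14, 9.98 and 10.01 in cytoplasmic control arrays and 10.31, 10.27 and 10.36 with 4EGI-1. The polysomal values were 9.24, 9.43 and 9.40 in control arrays and 10.30, 10.18 and 10.24 with 4EGI-1. The polysomal control arrays were the lowest 3, and with 4EGI-1 the fractions overlapped. Vps13b rose by 0.88 in polysomal RNA (SE 0.080, adjusted p = 1.97e-06) and by 0.27 in cytoplasmic RNA (SE 0.080, adjusted p = 0.0282). The difference of the effects was 0.61 (adjusted p = 0.00722).

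Vps13a was 9.45, 9.51 and 9.53 in polysomal control arrays and 10.31, 10.17 and 10.16 in polysomal 4EGI-1 arrays, without overlap. Its cytoplasmic values, 9.82, 10.04 and 9.53 in control arrays and 10.15, 10.16 and 9.87 with 4EGI-1, overlapped. Vps13a rose by 0.71 in polysomal RNA (SE 0.12, adjusted p = 0.000347), and its cytoplasmic difference of 0.27 did not pass (adjusted p = 0.132). Its difference of effects, 0.45, did not pass either (adjusted p = 0.210). Vps13c rose in both fractions. Its cytoplasmic values were 9.19, 9.17 and 8.99 in control arrays and 9.51, 9.44 and 9.47 with 4EGI-1, and its polysomal values were 8.92, 9.11 and 9.08 in control arrays and 9.69, 9.59 and 9.60 with 4EGI-1. The changes were 0.35 in cytoplasmic RNA (adjusted p = 0.00675) and 0.59 in polysomal RNA (adjusted p = 8.03e-05).

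Vps13d was 8.03, 8.11 and 8.19 in polysomal control arrays and 8.52, 8.42 and 8.38 with 4EGI-1, a rise of 0.33 (SE 0.10, adjusted p = 0.0211). Its cytoplasmic values were 8.58, 8.32 and 8.51 in control arrays and 8.62, 8.35 and 8.66 with 4EGI-1, which overlapped. The Vps13d difference of effects, 0.25, did not pass (adjusted p = 0.455). A second Vps13d probe set, with a mean of 7.22, disagreed in part. It rose by 0.45 in polysomal RNA and by 0.70 in cytoplasmic RNA, where the probe set used differed by 0.073. In control cells it was higher in polysomal RNA by 0.30 and passed (limma over the probe sets above the filter, adjusted p = 0.0216). The probe set used was lower there, at -0.36, and passed too, so the 2 calls are opposite. The mean of both differed by -0.03 (adjusted p = 0.834).

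The other proteins of this group carry a BEACH domain and act in vesicle traffic. Lrba, which keeps the receptor CTLA-4 from degradation, rose by 0.65 in polysomal RNA (adjusted p = 2.31e-05). Nbeal2, needed for granules of platelets, was the member that fell. Cytoplasmic Nbeal2 was 8.11, 7.78 and 8.03 in control arrays and 7.53, 7.48 and 7.65 with 4EGI-1. Its polysomal values were 7.61, 7.47 and 7.59 in control arrays and 7.37, 7.44 and 7.24 with 4EGI-1. The 4EGI-1 arrays were all lower in both fractions. Nbeal2 fell by 0.42 in cytoplasmic RNA (SE 0.10, adjusted p = 0.00643), and its polysomal difference of -0.21 did not pass (SE 0.10, adjusted p = 0.134). Its difference of effects, 0.21, did not pass either (adjusted p = 0.554).

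All 6 genes of the cytoskeleton and motors were lower in polysomal than in cytoplasmic RNA of control cells, with a median of -1.10, and 5 of the 6 rose in polysomal RNA with 4EGI-1. None passed in cytoplasmic RNA. Myh9, the heavy chain of nonmuscle myosin IIA, had the largest change of the members. In cytoplasmic RNA Myh9 was 9.84, 9.54 and 9.67 in control arrays and 9.76, 9.51 and 9.96 with 4EGI-1. In polysomal RNA it was 8.37, 8.48 and 8.33 in control arrays and 9.72, 9.48 and 9.75 with 4EGI-1. The polysomal control arrays were the lowest 3 of the 12, and the other 3 groups overlapped. Myh9 rose by 1.25 in polysomal RNA (SE 0.12, adjusted p = 2.33e-06), or 2.38-fold, which placed it at rank 37 of the 13180 genes by size of increase. The cytoplasmic difference was 0.064 (SE 0.12), and the difference of effects was 1.19 (SE 0.16, adjusted p = 0.000817). Polysomal minus cytoplasmic RNA was -1.29 in control cells (adjusted p = 2.04e-06) and -0.10 in 4EGI-1 cells (adjusted p = 0.617). A second, dimmer Myh9 probe set, with a mean of 6.45, showed no polysomal change. It differed by 0.00013 in polysomal and by -0.39 in cytoplasmic RNA and passed in neither. With the mean of both probe sets the polysomal change was 0.63 (adjusted p = 0.000459) and the difference of effects 0.79 (adjusted p = 0.00821).

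Flna, filamin A, which crosslinks actin filaments, was 8.52, 8.16 and 8.42 in cytoplasmic control arrays and 8.28, 8.22 and 8.57 with 4EGI-1. Polysomal Flna was 7.06, 7.14 and 7.07 in control arrays and 7.97, 7.78 and 7.82 with 4EGI-1. The cytoplasmic groups overlapped, and the polysomal arrays lay below the cytoplasmic ones in both conditions. Flna rose by 0.76 in polysomal RNA (SE 0.11, adjusted p = 9.71e-05), and the difference of effects was 0.77 (adjusted p = 0.0106). Polysomal minus cytoplasmic RNA was -1.27 in control cells (adjusted p = 1.11e-06) and -0.50 in 4EGI-1 cells (adjusted p = 0.00637).

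Dync1h1, the heavy chain of cytoplasmic dynein, kept a low polysomal value with 4EGI-1. Cytoplasmic Dync1h1 was 10.25, 9.89 and 10.04 in control arrays and 10.32, 10.11 and 10.57 with 4EGI-1. Its polysomal values were 8.81, 9.05 and 8.87 in control arrays and 9.62, 9.45 and 9.67 with 4EGI-1. Every polysomal array lay below every cytoplasmic array. The difference between fractions was -1.15 in control cells (adjusted p = 8.03e-06) and -0.75 in 4EGI-1 cells (SE 0.12, adjusted p = 0.000993). Dync1h1 rose by 0.67 in polysomal RNA (adjusted p = 0.000727), and the difference of effects, 0.40, did not pass (adjusted p = 0.304).

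Talin 1 (Tln1), which activates integrins, rose by 0.57 in polysomal RNA (adjusted p = 0.00252), and utrophin (Utrn), a relative of dystrophin, by 0.70 (adjusted p = 3.1e-05). The difference of effects of Utrn was 0.51 (adjusted p = 0.0386) and passed in 11 of the 22 other settings and single-array omissions. Macf1, which links actin to microtubules, was lower in polysomal RNA of control cells by a log2 difference of -0.26 (adjusted p = 0.0278), and its polysomal treatment difference was 0.019 (SE 0.082).

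**Figure D4:**
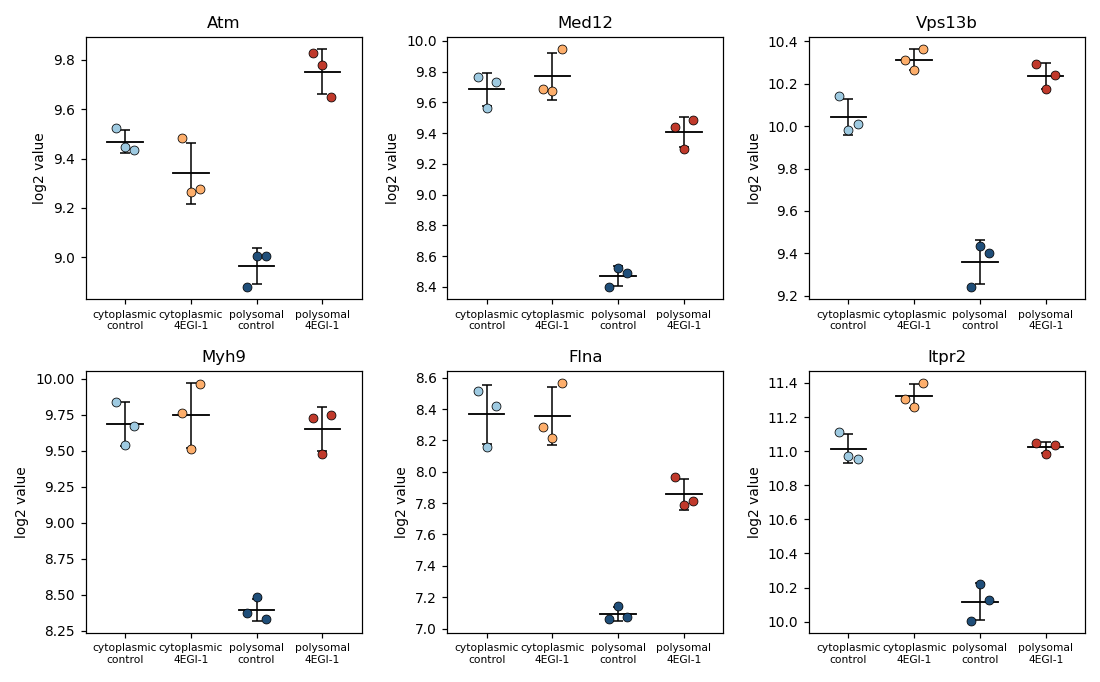
Each panel plots the log2 value of a gene on all 12 arrays, with points for arrays, horizontal bars for group means and error bars for the SD of 3 arrays. Vertical axes differ between panels and do not start at 0. In all 6 genes the polysomal control arrays are the lowest 3, as for Myh9 at 8.37, 8.48 and 8.33.

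Of the kinase anchors and the Ras regulator, Akap9, an anchoring protein of centrosome and Golgi, rose by 0.60 in polysomal RNA (adjusted p = 2.78e-05) and by 0.22 in cytoplasmic RNA (adjusted p = 0.0486). Akap13, another kinase-anchoring protein, rose by 0.59 in polysomal RNA (adjusted p = 6.24e-05), with a difference of effects of 0.57 (adjusted p = 0.0107) and a cytoplasmic difference of 0.021 (SE 0.079). Nf1, a GTPase-activating protein that turns Ras off, differed by 0.18 in polysomal RNA and did not pass (adjusted p = 0.0915). The cytoplasmic call of Akap9 held in 7 of the 22 other settings and single-array omissions.

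The inositol trisphosphate receptors release calcium from the endoplasmic reticulum, and both members measured were lower in polysomal RNA of control cells and rose there with 4EGI-1. Itpr2, whose promoter window is printed above, was 11.11, 10.97 and 10.96 in cytoplasmic control arrays and 11.31, 11.26 and 11.40 with 4EGI-1. In polysomal RNA it was 10.005, 10.22 and 10.13 in control arrays and 11.05, 10.99 and 11.04 with 4EGI-1. The groups did not overlap within either fraction. Itpr2 rose by 0.91 in polysomal RNA (SE 0.080, adjusted p = 1.64e-06), the smallest p of the members, and by 0.31 in cytoplasmic RNA (SE 0.080, adjusted p = 0.0148). The difference of effects was 0.60 (SE 0.11, adjusted p = 0.00866), and polysomal minus cytoplasmic RNA was -0.90 in control cells (adjusted p = 1.97e-06) and -0.30 in 4EGI-1 cells (adjusted p = 0.0202).

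Itpr3 was 8.70, 8.37 and 8.82 in cytoplasmic control arrays and 8.40, 8.12 and 8.69 with 4EGI-1, which overlapped. In polysomal RNA it was 7.63, 7.73 and 7.66 in control arrays and 8.17, 8.07 and 8.25 with 4EGI-1, which did not. Itpr3 rose by 0.49 in polysomal RNA (SE 0.13, adjusted p = 0.0125), where its SE was the largest of the members, and the cytoplasmic difference of -0.22 did not pass (adjusted p = 0.274). The difference of effects, 0.71, did not pass (adjusted p = 0.0554).

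The smaller subunits and partners of these proteins were listed for comparison, and 96 were tested. In polysomal RNA 18 of the 96 rose with 4EGI-1 and 18 fell, where 13.0% and 12.1% of all genes tested did so, with a median of -0.06. In control cells 34 were higher and 16 lower in polysomal than in cytoplasmic RNA, with a median of 0.13, where the shares over all genes were 16.7% and 12.2%. In the difference of treatment effects 4 of the 96 passed, all with the higher effect in polysomal RNA, against 2.31% of all genes. The members and their partners differed in these counts, 30 of 38 against 18 of 96 for the polysomal rise, and no test of that difference was made.

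Among the 4 partner lists, the largest share of polysomal rises was that of the partners of the kinases, with 10 higher and 1 lower of 18 and a median of 0.27. Rad50, a long coiled-coil ATPase of the complex that recruits Atm to broken DNA, rose by 1.07 in polysomal RNA (SE 0.075, adjusted p = 2.59e-07), with a difference of effects of 0.76 (adjusted p = 0.000905). Mtor, itself a large kinase of the same family that was listed with the partners, rose by 0.80 (SE 0.13, adjusted p = 0.000258), and its difference of effects was 0.86 (adjusted p = 0.015). It was named after its values had been seen. Of 42 partners in chromatin complexes 4 rose and 9 fell, with a median of -0.08. Med7, a small Mediator subunit, rose by 0.80 (adjusted p = 1.39e-05), and Brd8, a bromodomain subunit of the acetyltransferase complex of Ep400, had a difference of effects of 0.62 (adjusted p = 0.045). Of 23 partners in dynein, dynactin, myosin and adhesion 3 rose and 6 fell. Vinculin (Vcl), which binds talin, rose by 0.57 (adjusted p = 0.00022), with a difference of effects of 0.62 (adjusted p = 0.0124). Of 13 partners of the ligases 1 rose and 2 fell. Ube2b, a ubiquitin-conjugating enzyme, fell by 0.38 (adjusted p = 0.006), and Xiap, an inhibitor of caspases, had a difference of effects of -0.45 that did not pass (adjusted p = 0.131).

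**Figure D5:**
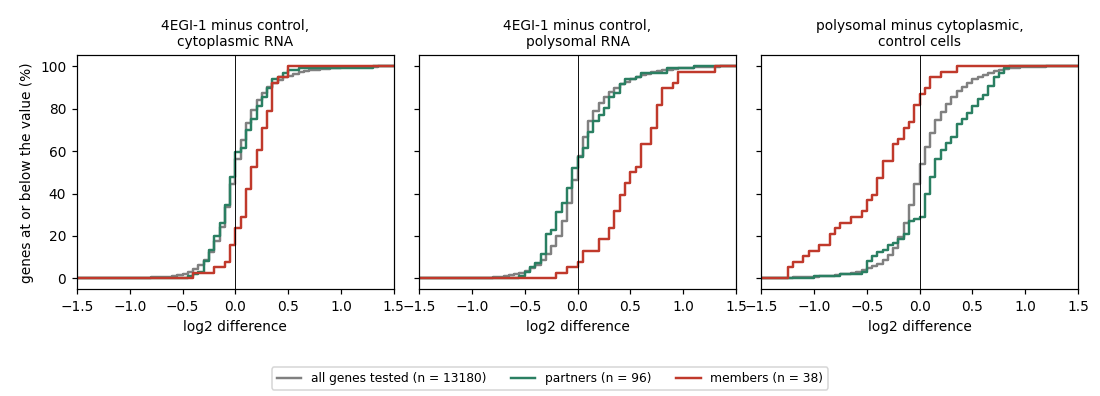
Each curve gives the percentage of genes at or below a log2 difference, for all 13180 genes tested (grey), the 96 partners (green) and the 38 giant-protein genes (red). In polysomal RNA the red curve lies to the right of the other curves, with a median of 0.51, and in the comparison of fractions in control cells it lies to the left, with a median of -0.37.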

How the data were processed

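The values are those of the deposited series table, in which 34760 probe sets have a log2 value on each of 12 single-colour arrays, made by the authors with RMA per the submitters' processing notes. The RMA version is not given in the sources used here, nor is it stated that all arrays went through 1 run. Gene symbols come from the annotation of the platform, which can be old: 21640 had 1 symbol, 1321 several and 11799 none. Genes whose mean lay below the 40th percentile of probe set means, a log2 value of 6.003, were left out. Group means of the 13180 genes left were fitted jointly in R 4.3.3 by lmFit and eBayes of limma 3.58.1, without a block. The design text takes cytoplasmic and polysomal RNA of a replicate from the same cells, but the labels do not say that equal numbers mark them. Between the fractions of a treatment, deviations from the group means correlated at 0.019 to 0.228 for equal numbers. For different numbers they correlated at -0.209 to 0.143. Benjamini-Hochberg adjustment ran over these genes with 0.05 as the threshold, and errors of differences are standard errors of the fit. The members, gene lists, tests and alternatives were chosen with earlier results of these data known. Array values are printed for the members with the 4 smallest p-values in each of the 5 comparisons and for all measured members of the inositol trisphosphate receptor, VPS13, Ep300 and Crebbp, and kinase families. From each partner list the genes named have the smallest p for the polysomal effect or for the difference of effects. The fit was tested on simulated data with independent arrays and few changed genes. That setting is simpler than these data, so the simulation does not check the counts given here. The number of arrays limits the precision. Alternatives were other filters, normalizations, probe set rules, estimates of the spread, blocks and single-array omissions. A description by protein length was not run, as no protein table was used here.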

Additional observations from a re-analysis of the deposited data

Results flagged for a closer look

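In 10 genes the treatment effect differed between the fractions by the test of the difference itself, polysomal minus cytoplasmic, at an adjusted p under 0.05 (limma, Benjamini-Hochberg over all genes tested). The log2 difference was 0.92 for Atm, 1.19 for Myh9, 0.85 for Med12, 0.61 for Vps13b, 0.60 for Itpr2, 0.77 for Flna, 0.57 for Akap13, 0.61 for Ep400, 0.68 for Trrap and 0.51 for Utrn. In all 10 the effect was higher in polysomal RNA. The calls of Trrap and Utrn did not hold in all settings, with adjusted p-values up to 0.103 and 0.118. Outlying arrays were not searched for, since each group has 3 arrays.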

How the results depend on the processing

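No member's call reversed its direction under any of the alternatives run, none of which used a dimmer probe set alone. Taken alone, the second Vps13d probe set passed in the opposite direction between fractions in control cells. Over the settings and the single-array omissions, 26 of 30 member calls for 4EGI-1 in polysomal RNA were kept throughout, as were 22 of 24 between fractions in control cells, 8 of 10 in the difference of effects, 6 of 14 between fractions in 4EGI-1 cells and 3 of 10 for 4EGI-1 in cytoplasmic RNA. The polysomal calls that were not always kept were those of Itpr3, Mga, Nsd1 and Vps13d. Fitting the arrays of a fraction alone left 2 cytoplasmic rises in place of 9 and gave 1 polysomal fall in place of 0. Over all 13180 genes that fit called 731 higher in cytoplasmic RNA and 2685 lower in polysomal RNA, against 1325 and 1599. With array weights 3 members fell in cytoplasmic RNA in place of 1, and 1 fell in polysomal RNA in place of 0. Over all 13180 genes array weights called 2667 lower in cytoplasmic RNA and 2750 in polysomal RNA, against 1027 and 1599 without weights. With weights 20 members passed in the difference of effects in place of 10. The median between fractions in control cells was then -0.43 in place of -0.37. Between fractions in 4EGI-1 cells 2 members were higher in place of 4 without the filter on low values and 2 with arrays centred on their medians. The cause of these differences was not tested. Leaving out single arrays gave 5 to 11 cytoplasmic rises, 1 to 2 cytoplasmic falls, 27 to 31 polysomal rises, 21 to 25 members lower between fractions in control cells, 1 to 4 higher and 5 to 11 lower between fractions in 4EGI-1 cells, and 8 to 13 in the difference of effects. Where an omission leaves 2 arrays, these are taken to vary like the other groups. Same-numbered arrays had correlations of their deviations from the group means between -0.22 and 0.56, and arrays with different numbers between -0.70 and 0.41. Between the fractions of control cells the mean was 0.095 for same and -0.048 for different numbers. In 4EGI-1 cells these means were 0.094 and -0.047. Deviations from a group mean cancel out over the arrays of the group, so the mean for different numbers is nearly fixed by that for same numbers. Whether equal numbers mark paired arrays is not settled by these values. With the replicate number as a block 31 members rose in polysomal RNA, 8 rose in cytoplasmic RNA, 25 were lower between fractions in control cells and 12 passed in the difference of effects. With the replicate block set within each treatment, these last 2 counts were 22 and 11, and the calls it changed are given beside the results. The description by protein length was not run under any setting.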
